A study of Mus musculus with 12 samples.

Results

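The motor genes described here are the kinesins, the kinesin light chains and the subunits of cytoplasmic dynein 1 that move along microtubules in mouse cells. They were taken as every protein-coding gene of the mouse build GRCm38 whose symbol is Kif or Kifc with a number, Klc1 to Klc4, or begins with Dync1, which gave 51 genes among the 55487 gene identifiers measured. Of these, 14 form the mitotic class (motors known from the spindle, the chromosomes and cytokinesis), 26 form the transport class (motors known from carrying cargo, here with the light chains and dynein 1), and 11 are left as remaining motors with roles in cilia, Hedgehog signalling or elsewhere. The classes follow textbook roles, but they were chosen with earlier results of these data known. Several genes act in both settings, and Kif2a, a depolymerase of both spindles and neurites, was placed among the remaining motors.

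RNA was profiled in 12 libraries from the ventricular zone of the mouse dorsal cortex, cut out by laser microdissection, with 3 libraries in each of 4 groups. The groups were E16.5 p18mKO2+, E16.5 p18mKO2-, E13.5 p18mKO2+ and E13.5 p18mKO2-, where E gives the embryonic day. The p18mKO2+ embryos are labelled as over-expressing p18mKO2 from a conditional ROSA26 knock-in, in which Cre removes a loxP-flanked stop so that p18, an inhibitor of the cyclin D kinases, is made together with the fluorescent protein mKO2. The p18mKO2- embryos are labelled normal, both genotypes received tamoxifen, and the study asked how such kinase inhibitors relate to the onset of astrocyte production. The labels name no Cre driver and no day of tamoxifen, and do not say whether the normal embryos carry the cassette. Nor do they say if a group's libraries stem from different embryos. The p-values therefore rest on the scatter among 3 libraries, part of which may be technical.

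Kinesins and dynein are ATP-driven motors: most kinesins walk toward the plus ends of microtubules and cytoplasmic dynein walks toward the minus ends. In a dividing cell, mitotic kinesins push the spindle poles apart, align chromosomes and build the midzone at which the cell splits, whereas in a neuron kinesin-1, kinesin-2 and kinesin-3 carry vesicles, organelles and RNA into the axon and dynein brings cargo back to the cell body. Radial glia, the progenitors of the ventricular zone, use both kinds, since their nuclei travel between the ventricle and the outer edge of the zone during each cell cycle, and in rat this movement has been tied to dynein and to Kif1a.

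The libraries held between 17101953 and 21837090 estimated counts each. The targeted gene, Cdkn2c, which encodes p18, was not called in either genotype comparison (log2 changes of 0.32 ± 0.26 at E16.5 and 0.14 ± 0.26 at E13.5), and at 15.1 to 32.6 CPM over all 12 libraries it did not set the labelled genotypes apart. Summed markers of radial glia lay between 1317 and 2726 CPM (counts-per-million, scaled for library composition) and summed markers of neurons between 2233 and 9444 CPM, so each library labelled as ventricular zone also held neuronal transcripts. All 3 E13.5 p18mKO2- libraries carried Xist and at most 0.415 CPM of Y-linked transcripts, while 2 libraries, replicate 3 of E16.5 p18mKO2+ and replicate 3 of E13.5 p18mKO2+, carried more than 50 CPM of both. Y-linked transcripts stood at 135, 182 and 81.7 CPM in E16.5 p18mKO2+ and 0.061, 168 and 0.232 CPM in E16.5 p18mKO2-. In E13.5 p18mKO2+ they stood at 0, 178 and 88.9 CPM. The mix of sexes thus differed between the genotypes compared at each stage. In bulk RNA, fewer cells of a type and less RNA per cell cannot be told apart.

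Of the 51 motor genes, 47 passed the filter on low counts and were tested, 13 mitotic, 26 transport and 8 remaining. Kif2b, a mitotic depolymerase, and Kif12 were at 0 counts in all 12 libraries, which allows at most 0.0128 CPM over the pooled libraries (3 counts, counting error only). Kif28 was at 0 in 10 libraries, and Kif19a, a kinesin of motile cilia, reached at most 0.651 CPM. Compared per length, in TPM (transcripts-per-million), the most abundant transport motor in E13.5 p18mKO2- was Dync1i2, an intermediate chain of dynein, at 176 ± 28.5 TPM, followed by the light chain gene Klc1 at 142 ± 10.3 TPM (SD, n = 3 each). The most abundant mitotic motor there was Kif23 at 108 ± 17.7 TPM, above Kif22 at 82.8 ± 1.11 TPM and Kif11 at 82.3 ± 4.67 TPM, while Kif14 at 7.58 ± 1.43 TPM was the lowest one tested. In E16.5 p18mKO2+ libraries the leading transport motors were again Dync1i2 at 244 ± 9.63 TPM and Klc1 at 219 ± 34.3 TPM, whose values lay within 1 SD of each other.

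The summed TPM of the mitotic class stood at 416 to 484 in E13.5 p18mKO2+ libraries, against 671 to 693 in E13.5 p18mKO2- libraries. The summed TPM of the transport class stood at 1502 to 1802 in E13.5 p18mKO2+ libraries, against 966 to 1116 in E13.5 p18mKO2- libraries. The mitotic sum divided by the transport sum was thus 0.260, 0.322 and 0.231 in E13.5 p18mKO2+ and 0.602, 0.627 and 0.695 in E13.5 p18mKO2-, without overlap. At E16.5 the ratio was 0.139, 0.165 and 0.144 in p18mKO2+ and 0.147, 0.191 and 0.115 in p18mKO2-, and these groups overlapped. Both E16.5 groups lay below both E13.5 groups.

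**Figure D1:**
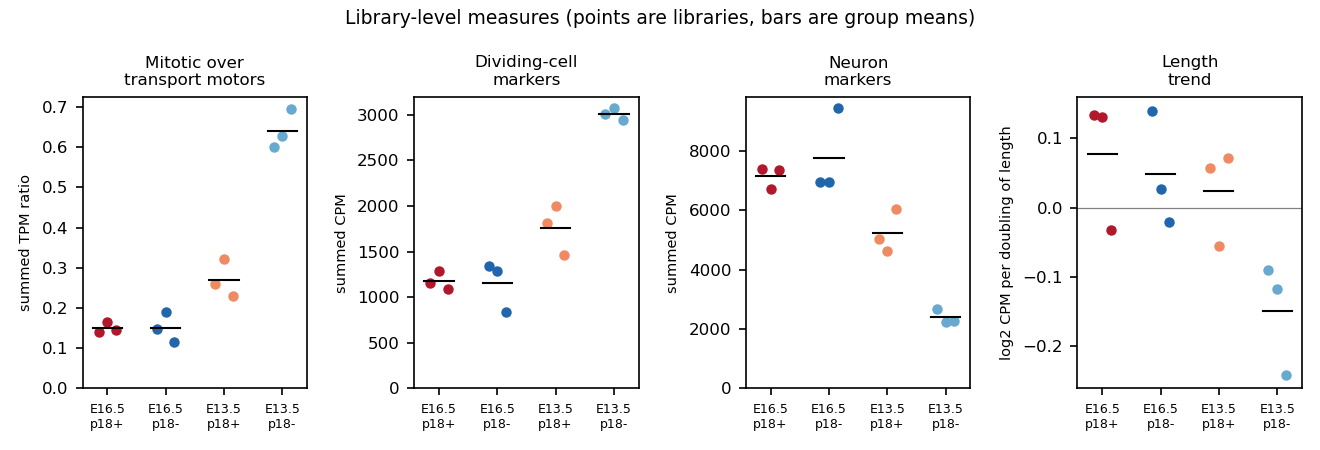
Each point is 1 library of the group named on the x axis (p18+ and p18- stand for p18mKO2+ and p18mKO2-) and each bar a group mean, for the ratio of summed mitotic to summed transport TPM, the summed CPM of dividing-cell markers, the summed CPM of neuron markers, and the slope of log2 CPM per doubling of effective length. The ratio averages 0.271 ± 0.047 in E13.5 p18mKO2+ and 0.641 ± 0.048 in E13.5 p18mKO2- (SD, n = 3 each), and the markers and the length slope differ between the same groups.

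The promoters of the mitotic motors are shown first, because the class shares a sequence feature that its choice did not use. Promoter entries from RefSeq (GRCm38.p6, 250 bases before to 50 after each start) were found for 40 of the 51 genes. The cell cycle genes homology region, CHR, a short element known from promoters of genes expressed in G2 and mitosis, was searched as TTTGAA and its complement TTCAAA, and the CCAAT box as CCAAT and ATTGG, wherever they occurred on either strand. The CHR letters were in 11 of 13 mitotic promoters (84.6%), 1 of 21 promoters of 18 transport motors (4.76%, that of Kif1a) and 2 of 11 promoters of 9 remaining motors (18.2%), against 17.9% of all 32851 promoters in the table, where a gene can have several. The CCAAT letters were in 9 of 13 mitotic promoters (69.2%) and 6 of 21 transport promoters (28.6%), against 37.4% of all promoters. Kif20a had no promoter entry, the promoters of Kif18a and Kif2b lacked the CHR letters, and Kifc1 and Kifc5b are near-identical copies. The windows below run from 60 bases before to 30 after the start, limits chosen after the positions were seen, and in this window the CHR letters were in 8 of 13 mitotic promoters (61.5%), 1 of 21 transport promoters (4.76%) and 4.62% of all promoters. The first lines are mitotic motors that fell at E13.5 or, for Kif11, in the stage comparison, and the last 3 are transport motors that rose, with CHR and CCAAT letters in capitals.
Kif11 (chr19:37376322-37376411, plus strand): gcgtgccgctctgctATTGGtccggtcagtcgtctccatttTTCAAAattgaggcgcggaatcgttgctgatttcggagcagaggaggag
Kif15 (chr9:122951021-122951110, plus strand): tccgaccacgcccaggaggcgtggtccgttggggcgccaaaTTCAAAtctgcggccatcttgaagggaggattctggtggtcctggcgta
Kif20b (chr19:34922298-34922387, plus strand): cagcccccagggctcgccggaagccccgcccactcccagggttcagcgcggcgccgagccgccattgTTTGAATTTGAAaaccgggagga
Kif22 (chr7:127042391-127042480, minus strand): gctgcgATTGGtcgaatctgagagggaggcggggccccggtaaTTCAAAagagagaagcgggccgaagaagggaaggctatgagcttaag
Kif23 (chr9:61946770-61946859, minus strand): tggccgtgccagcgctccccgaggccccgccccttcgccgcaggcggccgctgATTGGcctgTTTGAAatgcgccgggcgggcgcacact
Kif4 (chrX:100626005-100626094, plus strand): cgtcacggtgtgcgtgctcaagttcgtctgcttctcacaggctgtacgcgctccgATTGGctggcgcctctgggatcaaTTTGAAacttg
Dync1i1 (chr6:5725579-5725668, plus strand): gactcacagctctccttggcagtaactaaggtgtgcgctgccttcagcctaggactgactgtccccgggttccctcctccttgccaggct
Kif3c (chr12:3365072-3365161, plus strand): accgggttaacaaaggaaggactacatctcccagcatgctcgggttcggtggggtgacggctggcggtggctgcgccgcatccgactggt
Kif5c (chr2:49619226-49619315, plus strand): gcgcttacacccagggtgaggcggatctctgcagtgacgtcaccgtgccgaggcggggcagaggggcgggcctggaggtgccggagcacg
Counted from the start, the CHR letters in these windows began at -19 in Kif11 and Kif15, -17 in Kif22, 3 in Kif23, 8 and 14 in Kif20b and 20 in Kif4. The windows of Dync1i1, Kif3c and Kif5c held neither motif. These 3 were picked from the transport motors that rose at E13.5. Kif1a, which also rose but is not shown, had the CHR letters at -44 in 1 of its promoters. The promoters of Klc1 and Dync1li1, which rose too, held neither motif. A match of letters describes the sequence and does not show that a factor binds there.

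The first comparison asked how p18mKO2+ tissue differed from p18mKO2- tissue at E13.5. Mitotic motors were lower and transport motors higher in p18mKO2+ libraries. Of the 13 mitotic motors tested, 6 fell and 0 rose at an adjusted p under 0.05 (edgeR quasi-likelihood with Benjamini-Hochberg adjustment over all 16798 genes), while 3.49% of all genes fell. All 13 had negative log2 changes, between -0.92 and -0.41 with a median of -0.80, where the median over all genes was 0.01. Of the 26 transport motors, 8 rose and 0 fell, while 7.29% of all genes rose, 10.8% being called in all, and their median log2 change was 0.54. Measured in CPM, every p18mKO2+ library lay below every p18mKO2- library in 12 of the 13 mitotic motors, as in 14.1% of all genes. In 13 of the 26 transport motors every p18mKO2+ library lay above, as in 16.6% of all genes.

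The counts depended on single libraries more than the directions did. The 6 mitotic calls became 2 without E13.5 p18mKO2+ replicate 1, 2 without E13.5 p18mKO2+ replicate 3, 3 without E13.5 p18mKO2- replicate 1, 2 without E13.5 p18mKO2- replicate 2 and 10 without E16.5 p18mKO2- replicate 3, which shares the estimate of spread. The 8 transport calls became 5 without E13.5 p18mKO2+ replicate 1, 5 without E13.5 p18mKO2+ replicate 3, 4 without E13.5 p18mKO2- replicate 2 and 5 without E13.5 p18mKO2- replicate 3. Without the 2 libraries that carried Xist and Y-linked transcripts together, 2 mitotic and 5 transport calls were left. Here and in later paragraphs, the number of all genes called under an alternative is not given. Such shifts therefore cannot be set against those over all genes. Of the 15 motors called in this comparison, 6 were called under all 22 alternatives: Kif20b, Kif23, Dync1i1, Kif3c, Kif5a and Kif5c.

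**Figure D2:**
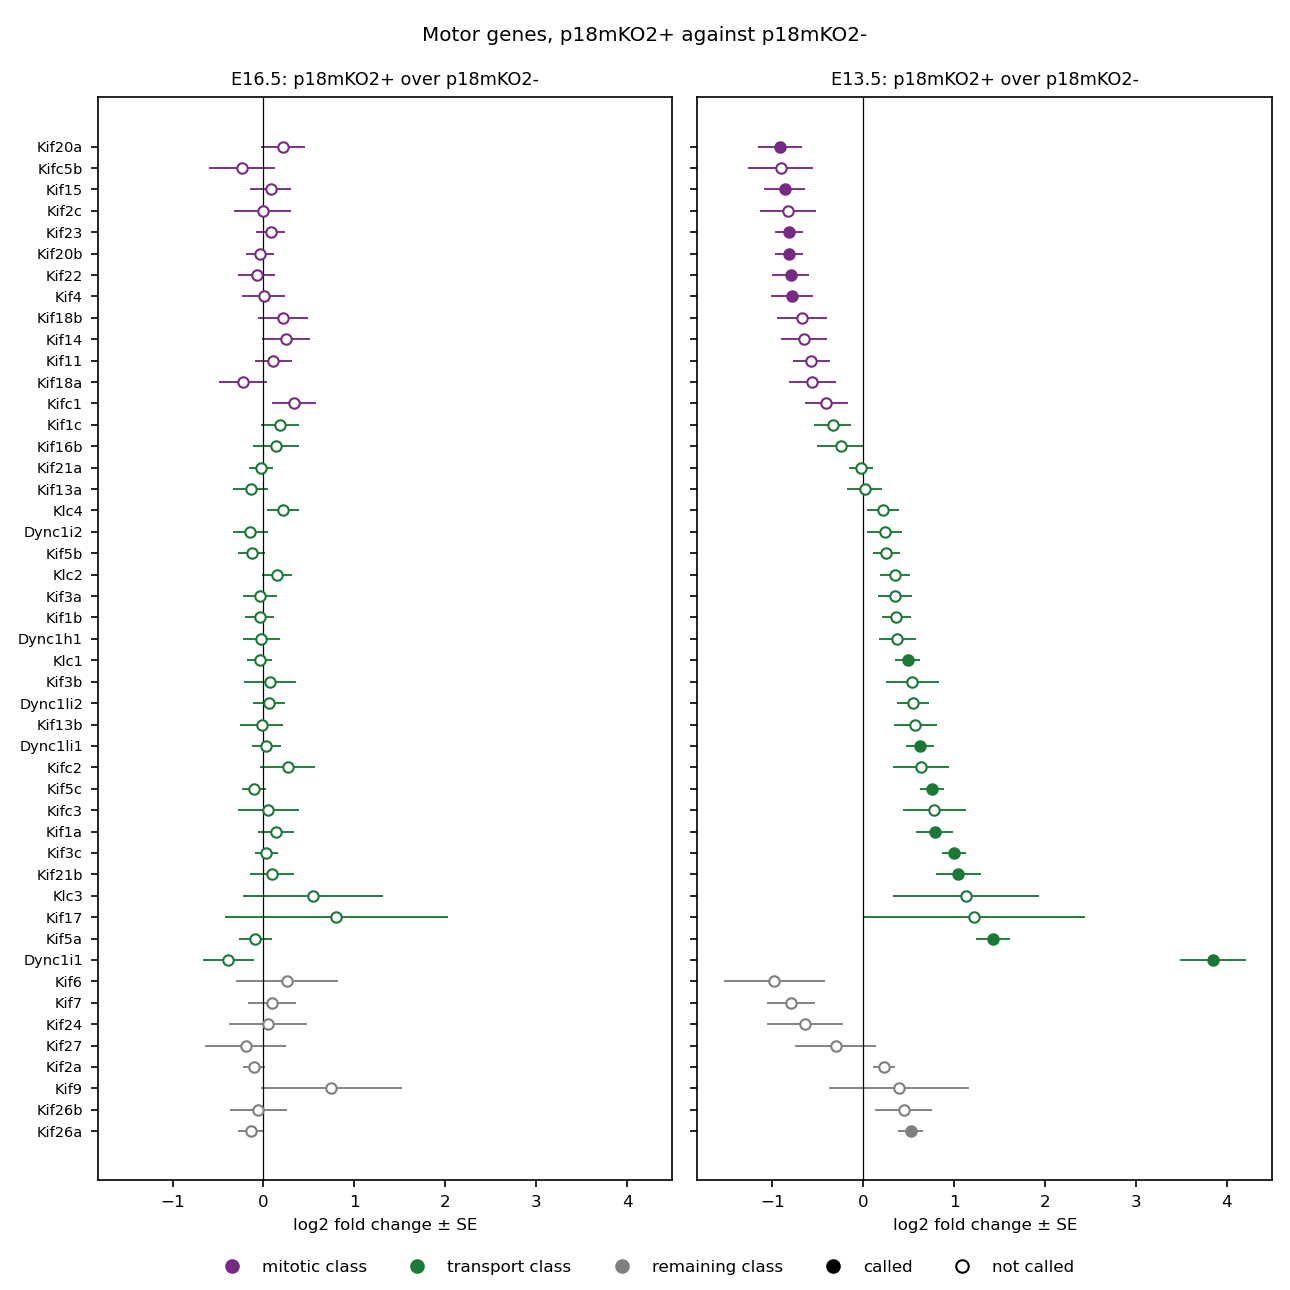
Log2 fold change of p18mKO2+ over p18mKO2- for the 47 motor genes tested, at E16.5 on the left and E13.5 on the right, with bars of 1 SE and filled symbols for called genes. At E13.5 the 13 mitotic motors lie between -0.92 and -0.41 and Dync1i1 reaches 3.85, while at E16.5 no symbol is filled.

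Among the motors of the spindle midzone, Kif23, which with Racgap1 forms the centralspindlin complex of cytokinesis, stood at 61.6, 70.4 and 58.04 CPM in E13.5 p18mKO2+ and 107, 107 and 122 CPM in E13.5 p18mKO2-. Its groups did not overlap and it fell by 0.82 ± 0.16 on the log2 scale (edgeR adjusted p = 0.00477). Kif20b, which acts in the final cut between daughter cells of mouse cortical progenitors, stood at 43.3, 49.9 and 40.1 CPM in p18mKO2+ and 83.4, 68.4 and 83.5 CPM in p18mKO2-. Every p18mKO2+ library was lower in CPM, with a log2 change of -0.82 ± 0.15 (edgeR adjusted p = 0.00458). In TPM the Kif20b groups overlapped slightly, at 36.2 to 41.75 in p18mKO2+ and 41.0 to 75.24 in p18mKO2-. Kif20a, which brings the chromosomal passenger complex to the midzone, stood at 67.2, 73.4 and 50.6 CPM in p18mKO2+ and 123, 140.2 and 97.4 CPM in p18mKO2-, without overlap (log2 change -0.92 ± 0.24, edgeR adjusted p = 0.0252).

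The chromokinesins, which bind chromosomes directly, moved the same way. Kif22 stood at 60.6, 72.6 and 48.9 CPM in E13.5 p18mKO2+ and 102, 104 and 110.1 CPM in E13.5 p18mKO2-, without overlap (log2 change -0.80 ± 0.20, edgeR adjusted p = 0.0215). Kif4, which is X-linked and also shapes the midzone, stood at 64.1, 65.6 and 45.96 CPM in p18mKO2+ and 104, 105 and 94.1 CPM in p18mKO2-, again without overlap (log2 change -0.79 ± 0.23, edgeR adjusted p = 0.0468). Kif4 was the least stable of the mitotic calls and was lost under 12 of 22 alternatives, with Y-linked expression as a covariate among them (log2 change -0.89, edgeR adjusted p = 0.0888).

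Of the kinesins that keep the spindle bipolar, Kif15 stood at 63.5, 70.8 and 57.7 CPM in E13.5 p18mKO2+ and 125, 124 and 101 CPM in E13.5 p18mKO2-, without overlap (log2 change -0.87 ± 0.22, edgeR adjusted p = 0.025). Kif11, which slides spindle microtubules apart, stood at 178, 178 and 154 CPM in p18mKO2+ and 263, 240.2 and 256 CPM in p18mKO2-. Its groups did not overlap, but at a log2 change of -0.57 ± 0.20 it did not pass the threshold (edgeR adjusted p = 0.0883). The other 6 mitotic motors tested, the depolymerase Kif2c, the plus-end kinesins Kif18a and Kif18b, the cytokinesis kinesin Kif14 and the minus-end motors Kifc1 and Kifc5b, were not called, at adjusted p between 0.102 and 0.316 (edgeR). Kifc1 and Kifc5b are near-identical and share reads, so their separate values carry some uncertainty. The posterior SD of the count reached at most 1.74% of the count for Kifc1 and 3.81% for Kifc5b. Exons of Kif20a overlap Cdc23 and those of Kif4 overlap Pdzd11 on the other strand, and Kif22 and Kif3c also have such neighbours. Over all 51 motor genes, 18 have exons that overlap another gene on the other strand. Without a stated strand setting, reads of a motor and its neighbour cannot be told apart.

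**Figure D3:**
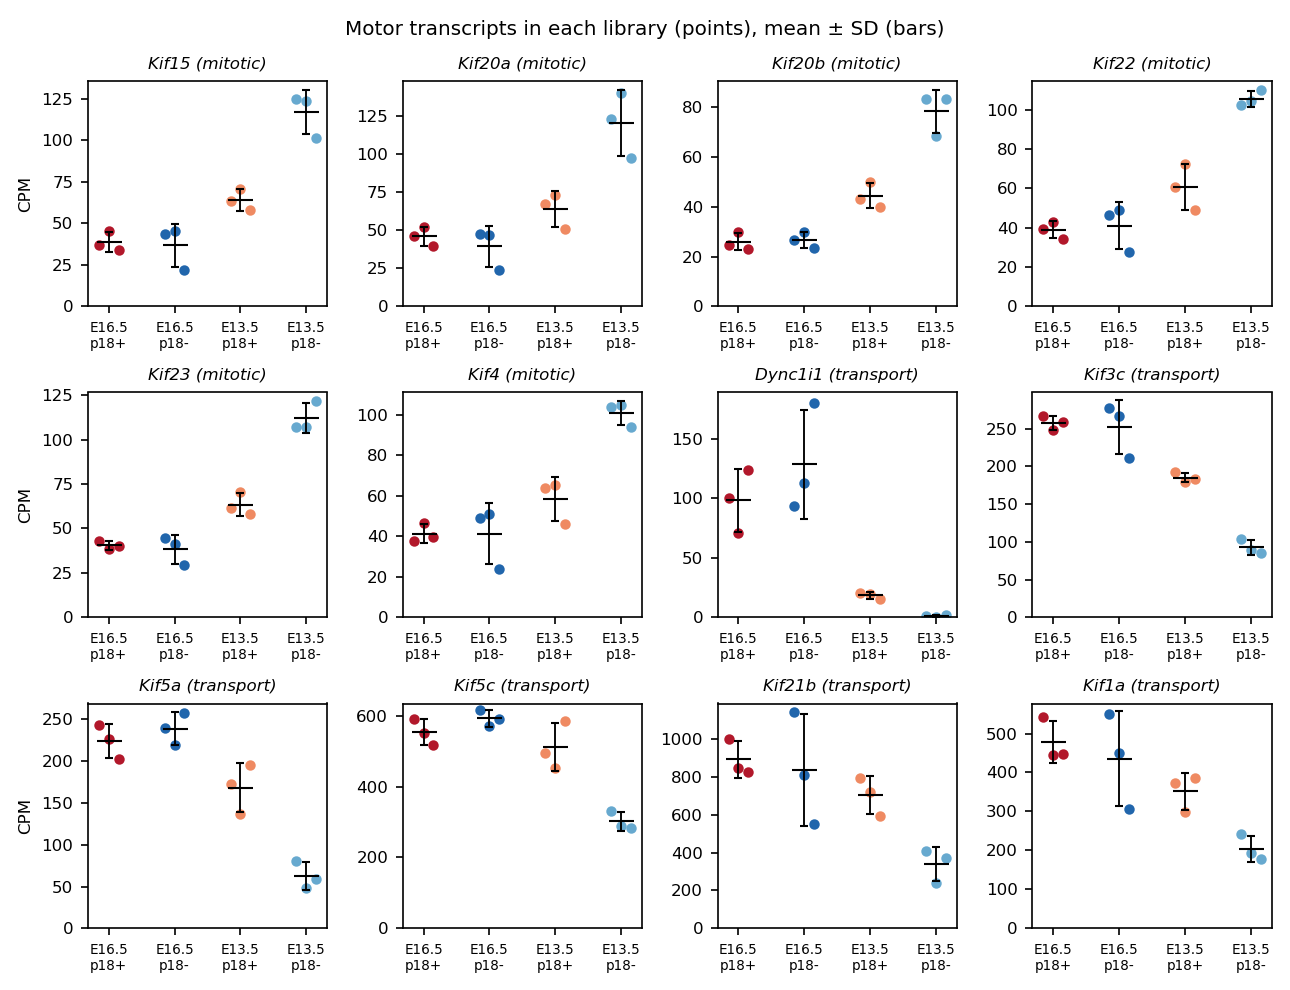
CPM of 6 mitotic and 6 transport motors in each library (points, by group on the x axis, p18+ and p18- for p18mKO2+ and p18mKO2-), with the mean and SD as bars. In each of the 12 panels the E13.5 p18mKO2+ and p18mKO2- libraries do not overlap, while the E16.5 p18mKO2+ and p18mKO2- libraries do.

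Kinesin-1, the main anterograde motor of axons, is built from heavy chains encoded by Kif5a, Kif5b and Kif5c and from Klc light chains that bind cargo. Kif5a, the most neuronal heavy chain, stood at 173, 137 and 195 CPM in E13.5 p18mKO2+ and 81.1, 47.9 and 59.4 CPM in E13.5 p18mKO2-, and rose by 1.42 ± 0.19 on the log2 scale (edgeR adjusted p = 0.000519). Kif5c, also enriched in neurons, stood at 495, 453 and 585 CPM in p18mKO2+ and 332, 289 and 284 CPM in p18mKO2- (log2 change 0.76 ± 0.13, edgeR adjusted p = 0.00296). Neither gene's groups overlapped. The ubiquitous heavy chain gene Kif5b overlapped, at 221, 194 and 175 CPM in p18mKO2+ and 188, 173 and 134 CPM in p18mKO2-, and was not called (log2 change 0.25 ± 0.15, edgeR adjusted p = 0.313).

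Of the light chain genes, Klc1 rose, at 214, 197 and 279.6 CPM in E13.5 p18mKO2+ and 167, 173 and 152 CPM in E13.5 p18mKO2- (log2 change 0.49 ± 0.14, edgeR adjusted p = 0.0382). This call was lost under 12 of 22 alternatives, and Klc1 overlaps an exon of Xrcc3 on the other strand. The light chain genes Klc2, Klc3 and Klc4 were not called, with log2 changes of 0.35 ± 0.17, 1.13 ± 0.80 and 0.22 ± 0.17.

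In the kinesin-2 family, Kif3c stood at 192, 179.7 and 183 CPM in E13.5 p18mKO2+ and 103, 88.8 and 85.6 CPM in E13.5 p18mKO2-, which was 1.00 ± 0.13 on the log2 scale without overlap (edgeR adjusted p = 0.000503). Kif3a, which pairs with either Kif3b or Kif3c, and Kif3b, which serves cilia with it, were not called (log2 changes of 0.35 ± 0.19 and 0.54 ± 0.29). In the kinesin-3 family, Kif1a, a carrier of synaptic vesicle precursors, stood at 373, 298 and 385 CPM in p18mKO2+ and 242, 194 and 178 CPM in p18mKO2-, without overlap (log2 change 0.78 ± 0.20, edgeR adjusted p = 0.0226). Kif1c, a kinesin-3 found in many tissues, had the lowest log2 change of the transport class at -0.34 ± 0.21 and was not called.

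In the kinesin-4 pair, Kif21b stood at 795, 720.3 and 595 CPM in E13.5 p18mKO2+ and 411, 239 and 371 CPM in E13.5 p18mKO2-, without overlap (log2 change 1.05 ± 0.25, edgeR adjusted p = 0.0164). Its paralog Kif21a stood at 238, 252 and 219 CPM in p18mKO2+ and 233, 233 and 256 CPM in p18mKO2- and overlapped (log2 change -0.03 ± 0.13, edgeR adjusted p = 0.934). Both kinesins restrain microtubule growth. Kif21b missed the threshold once the trend with gene length was removed in each library (log2 change 0.74, edgeR adjusted p = 0.0556).

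Cytoplasmic dynein 1 has a heavy chain that holds the motor, intermediate chains that bind dynactin and light intermediate chains that bind cargo adaptors. Dync1i1, the intermediate chain gene enriched in neurons, had 427, 434 and 353 counts in E13.5 p18mKO2+ and 29, 11 and 30 in E13.5 p18mKO2-, or 20.7, 19.8 and 15.1 CPM in p18mKO2+ against 1.51, 0.597 and 1.75 CPM in p18mKO2-. Its log2 change of 3.85 ± 0.36 was the largest of the 47 motors tested (edgeR adjusted p = 4.38e-05). The ubiquitous intermediate chain gene Dync1i2 stood at 290.5, 296 and 359 CPM in p18mKO2+ and 249, 235 and 320.0 CPM in p18mKO2-, overlapped and was not called (log2 change 0.23 ± 0.20, edgeR adjusted p = 0.508).

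The light intermediate chain gene Dync1li1 stood at 73.98, 87.5 and 86.8 CPM in E13.5 p18mKO2+ and 65.1, 53.6 and 42.2 CPM in E13.5 p18mKO2- and rose by 0.63 ± 0.16 on the log2 scale (edgeR adjusted p = 0.0207). Dync1li2, at 0.55 ± 0.17, narrowly missed the threshold (edgeR adjusted p = 0.0593), and the heavy chain gene Dync1h1 was not called at 0.37 ± 0.20 (edgeR adjusted p = 0.28). In CPM both had every p18mKO2+ library above every p18mKO2- library, but in TPM both overlapped. Dync1h1 stood at 126.61 to 161.53 TPM in E13.5 p18mKO2+ and 53.56 to 128.08 TPM in E13.5 p18mKO2-. Dync1li2 stood at 71.59 to 140.61 TPM in p18mKO2+ and 28.55 to 90.25 TPM in p18mKO2-.

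Of the 8 remaining motors tested, 1 rose and 0 fell, a share near that of all genes (7.29% rose and 3.49% fell), so the count says nothing particular of this class. Kif26a, a kinesin without motor activity that is known from enteric neurons, stood at 99.9, 89.1 and 93.6 CPM in E13.5 p18mKO2+ and 77.6, 64.4 and 54.9 CPM in E13.5 p18mKO2- (log2 change 0.52 ± 0.14, edgeR adjusted p = 0.0282), and it missed the threshold once the length trend was removed (log2 change 0.28, edgeR adjusted p = 0.198). Kif7, which regulates Hedgehog signalling at the tip of the cilium, stood at 9.89, 13.8 and 10.1 CPM in p18mKO2+ and 16.9, 19.97 and 21.7 CPM in p18mKO2-, without overlap but short of the threshold (log2 change -0.79 ± 0.26, edgeR adjusted p = 0.0694). Kif2a, a depolymerase of both spindles and neurites, was also not called (log2 change 0.23 ± 0.12, edgeR adjusted p = 0.261), although its 138, 131 and 152 CPM in p18mKO2+ lay above its 117, 116 and 126 CPM in p18mKO2-.

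Partner genes of the motors were taken from lists of textbook roles. Of 16 spindle partners, 9 fell and 0 rose in E13.5 p18mKO2+ (median log2 change -0.74), where 3.49% of all genes fell. Aurkb, the kinase of the chromosomal passenger complex that Kif20a carries, stood at 60.5, 59.3 and 44.98 CPM in p18mKO2+ and 101, 97.4 and 113 CPM in p18mKO2- (log2 change -0.92 ± 0.20, edgeR adjusted p = 0.01), and the complex members Incenp and Birc5 fell by 0.76 ± 0.17 and 0.73 ± 0.17. Cenpe, a kinesin of the kinetochore whose symbol lies outside the Kif series, changed by -0.77 ± 0.17 (edgeR adjusted p = 0.0111).

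Of 19 cargo adaptors and regulators of transport kinesins, 7 rose and 0 fell (median log2 change 0.40), where 7.29% of all genes rose. Clstn2, a calsyntenin of the family that docks to kinesin light chains, stood at 33.6, 29.2 and 31.1 CPM in E13.5 p18mKO2+ and 5.09, 6.84 and 6.78 CPM in E13.5 p18mKO2- (log2 change 2.33 ± 0.18, edgeR adjusted p = 4.24e-05). The scaffold gene Mapk8ip2 rose by 0.75 ± 0.15, the lysosomal GTPase gene Arl8a by 0.75 ± 0.16 and Kifap3, the third subunit of kinesin-2, by 0.70 ± 0.16. Of 21 dynein partners, 0 rose and 1 fell (median 0.17), which is near the 3.49% of all genes that fell and no result about the list. The 1 was Spdl1, which recruits dynein to kinetochores, at 13.6, 22.4 and 16.3 CPM in p18mKO2+ and 34.6, 36.1 and 30.01 CPM in p18mKO2- (log2 change -0.94 ± 0.22, edgeR adjusted p = 0.0167).

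Marker genes of cell types moved with the same groups. For the marker counts that follow, 3.49% of all genes fell and 7.29% rose. Of 8 dividing-cell markers 6 fell and 0 rose, with a summed level of 1458 to 1996 CPM in E13.5 p18mKO2+ and 2943 to 3078 CPM in E13.5 p18mKO2-. Of 12 neuron markers 6 rose and 0 fell, with a summed level of 4614 to 6058 CPM in p18mKO2+ and 2233 to 2669 CPM in p18mKO2-, and of 8 radial glia markers 4 fell and 0 rose (1519 to 2111 CPM in p18mKO2+ and 2391 to 2726 CPM in p18mKO2-). Of 6 ventral forebrain and interneuron markers 2 rose (488 to 673 CPM in p18mKO2+ and 142 to 386 CPM in p18mKO2-) and of 6 endothelial and pericyte markers 2 rose (154 to 179 CPM in p18mKO2+ and 98.97 to 147 CPM in p18mKO2-). Of the lists for intermediate progenitors, microglia, meninges and ependyma or choroid plexus 0 genes were called, and of 5 blood genes 1 fell. No marker of these lists was at 0 in all libraries of a group, and their part in the motor results was not tested. The ribosomal RNA gene CT010467.1 stood at 42640, 65840 and 26186 CPM in E13.5 p18mKO2+ and 52442, 79492 and 87992 CPM in E13.5 p18mKO2-, with overlap and without a call (log2 change -0.71 ± 0.38, edgeR adjusted p = 0.269). With its level as a covariate 2 mitotic and 5 transport motors were called.

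Gene length also moved with the groups. The slope of log2 CPM per doubling of effective length was 0.057, -0.055 and 0.071 in E13.5 p18mKO2+ and -0.09, -0.118 and -0.242 in E13.5 p18mKO2-, over 10924 genes. The median effective length was 2536 bases for the mitotic and 4182 bases for the transport motors tested. With the trend removed in each library, 8 mitotic and 7 transport motors were called.

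The second comparison asked the same at E16.5, where no motor separated the genotypes. Of 47 motors tested 0 were called, as were 0% of all 16798 genes (edgeR, against 426 genes at an unadjusted p under 0.05), 0 motors had an unadjusted p under 0.05, and DESeq2 and limma-voom also called 0 mitotic and 0 transport motors. The median log2 change was 0.08 for mitotic and 0.03 for transport motors, neither with a stable sign (-0.14 and -0.04 without E16.5 p18mKO2- replicate 3), and the groups overlapped in all 47 motors, where 4.07% of all genes had every p18mKO2+ library above and 3.88% below. The smallest p belonged to Dync1i1, at 100.2, 70.7 and 123 CPM in E16.5 p18mKO2+ and 93.02, 112 and 179.7 CPM in E16.5 p18mKO2- (log2 change -0.39 ± 0.28, edgeR adjusted p = 0.9997).

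The next smallest p was that of the minus-end motor Kifc1, at 24.7, 28.2 and 27.4 CPM in E16.5 p18mKO2+ and 25.3, 26.6 and 11.8 CPM in E16.5 p18mKO2- (log2 change 0.33 ± 0.24). Klc4 stood at 25.2, 27.4 and 30.5 CPM in p18mKO2+ and 25.5, 24.1 and 21.9 CPM in p18mKO2- (log2 change 0.22 ± 0.17), and Kif26a at 114, 93.00 and 109.7 CPM in p18mKO2+ and 114, 121 and 114 CPM in p18mKO2- (log2 change -0.14 ± 0.14). Each of the 3 overlapped between the groups. Replicate 3 of E16.5 p18mKO2- stood apart, with a summed mitotic TPM of 169.57, the lowest of the 12 libraries, beside 294.47 and 329.45 in the other libraries of its group, and with summed neuron markers of 9444 CPM beside 6939 and 6949 CPM. The ribosomal RNA gene stood at 16646 to 39641 CPM in E16.5 p18mKO2+ and 70619 to 151990 CPM in E16.5 p18mKO2-. It did not overlap but was not called (log2 change -1.91). Summed ventral forebrain and interneuron markers stood at 375 to 547 CPM in p18mKO2+ and 192 to 286 CPM in p18mKO2-, without overlap or calls. Summed dividing-cell and neuron markers overlapped. A fit with the ribosomal RNA gene as covariate is among the alternatives given below. The part of the other differences in the motor results was not tested.

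Whether the genotype effect itself differed between the stages was tested as the E16.5 effect minus the E13.5 effect. Of 13 mitotic motors 1 was called higher, as were 0.298% of all genes, and of 26 transport motors 4 were called lower, as were 2.4% of all genes (edgeR, with 2.7% called in either direction). All 13 mitotic differences were positive, with a median of 0.79, and the transport median was -0.44, where the median over all genes was -0.03. Kif23 differed by 0.90 ± 0.22 (edgeR adjusted p = 0.0448), a call lost under 12 of 21 alternatives, among them 9 of the 12 in which 1 library was left out. The 4 transport motors were Dync1i1 at -4.24 ± 0.46 (adjusted p = 0.000568), Kif5a at -1.51 ± 0.26 (adjusted p = 0.00875), Kif3c at -0.97 ± 0.18 (adjusted p = 0.015) and Kif5c at -0.86 ± 0.19 (adjusted p = 0.0264), all by edgeR. The E16.5 levels behind these differences overlapped between genotypes. Kif23 stood at 43.04, 38.4 and 39.99 CPM in E16.5 p18mKO2+ and 44.7, 41.1 and 29.2 CPM in E16.5 p18mKO2-, and Kif5a at 243, 227 and 202 CPM in p18mKO2+ and 240.0, 219 and 258 CPM in p18mKO2-. Kif3c stood at 266, 248 and 258 CPM in p18mKO2+ and 278, 267 and 211 CPM in p18mKO2-, and Kif5c at 591, 550.4 and 518 CPM in p18mKO2+ and 617, 570.0 and 591 CPM in p18mKO2-. Without E13.5 p18mKO2+ replicate 1 or without E16.5 p18mKO2+ replicate 2 the transport calls numbered 2, and without the 2 libraries of mixed Xist and Y-linked transcripts they numbered 1. This difference uses the same libraries as both genotype comparisons. Of the partner genes, Clstn2 was called among the cargo adaptors, at -2.79 ± 0.25 (edgeR adjusted p = 0.000207).

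The third comparison asked how E16.5 differed from E13.5 in normal tissue. All 13 mitotic motors tested fell in E16.5 p18mKO2-, while 13.4% of all genes fell, with a median log2 change of -1.36, and in each of them every E16.5 library lay below every E13.5 library, as in 19.4% of all genes. Of 26 transport motors 15 rose and 1 fell, while 16.4% of all genes rose and 29.8% were called in all, with a median log2 change of 0.64, where the median over all genes was -0.02. Every E16.5 library was above every E13.5 library in 14 of the 26, as in 21% of all genes. These values share the E13.5 p18mKO2- libraries with the genotype comparison at E13.5, so they are no independent support for it. The 13 mitotic calls stayed between 12 and 13 when any 1 library was left out, and the 16 transport calls between 12 and 16.

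**Figure D4:**
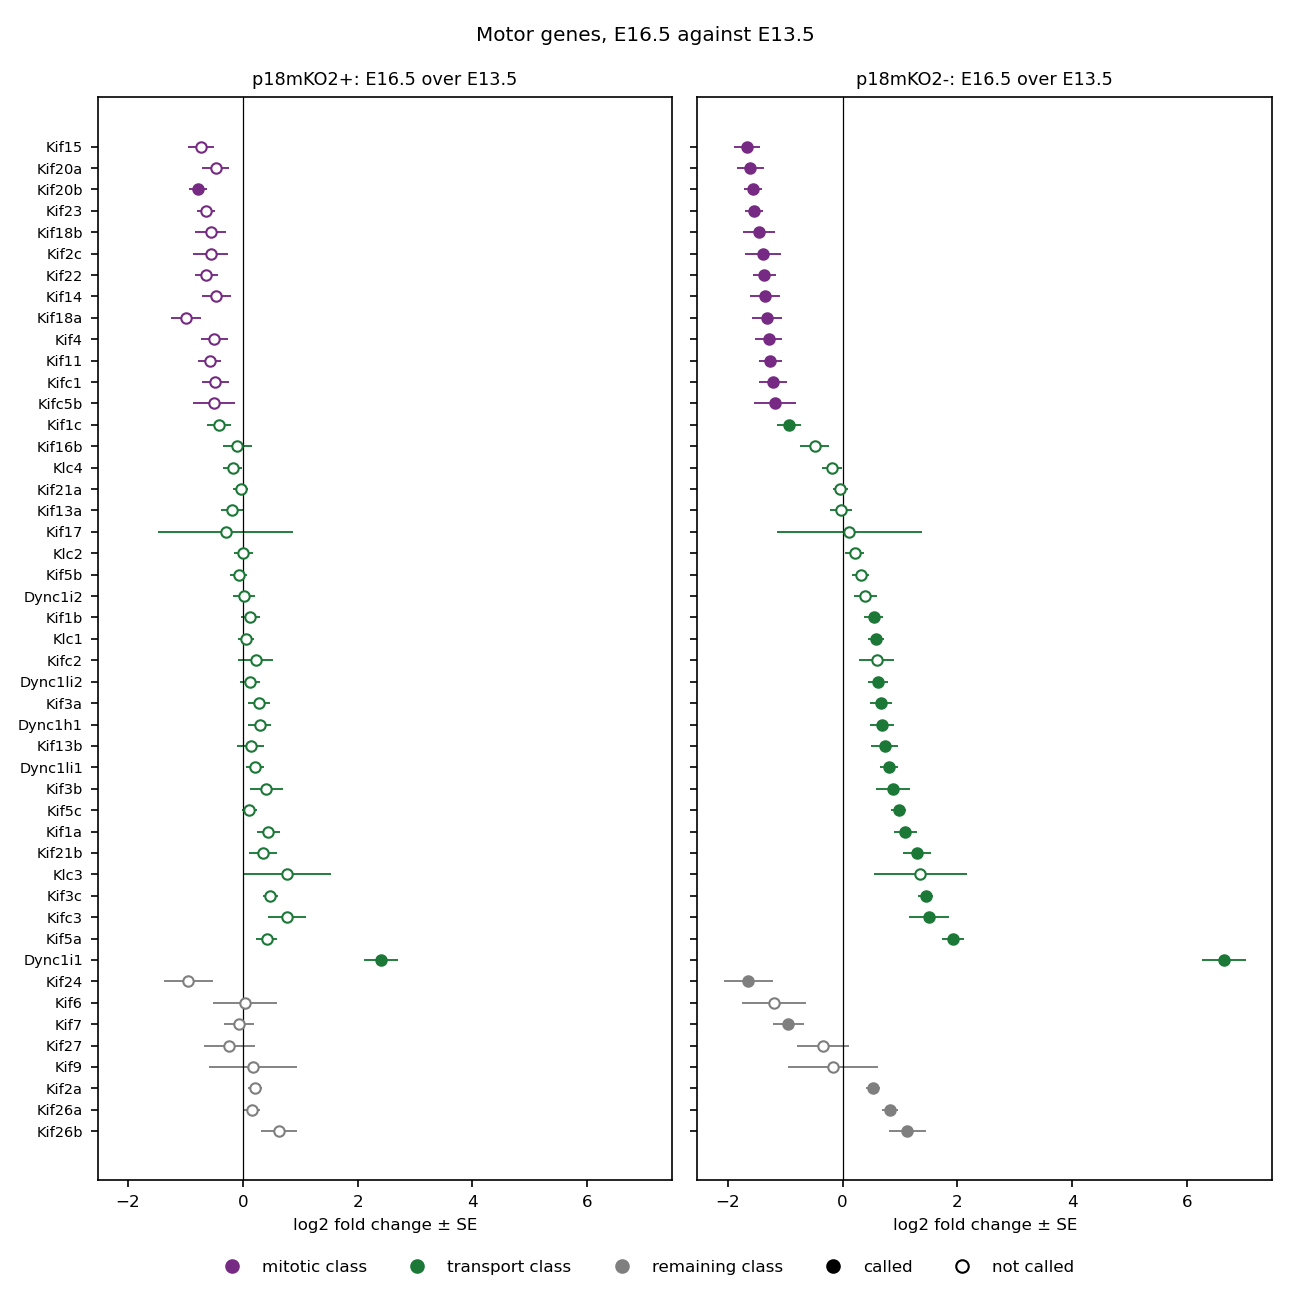
Log2 fold change of E16.5 over E13.5 for the 47 motor genes tested, in p18mKO2+ on the left and p18mKO2- on the right, with bars of 1 SE and filled symbols for called genes. In p18mKO2- all 13 mitotic motors are called lower and Dync1i1 reaches 6.64, and in p18mKO2+ the called motors are Kif20b at -0.78 and Dync1i1 at 2.40.

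Kif20b stood at 26.5, 29.9 and 23.6 CPM in E16.5 p18mKO2-, against 78.5 ± 8.69 CPM in E13.5 p18mKO2- (SD, n = 3), and changed by -1.56 ± 0.16 (edgeR adjusted p = 1.16e-05). Kif23 stood at 44.7, 41.1 and 29.2 CPM at E16.5, against 112 ± 8.55 CPM at E13.5 (log2 change -1.55 ± 0.16, edgeR adjusted p = 1.28e-05). Kif15 stood at 43.3, 45.02 and 21.6 CPM at E16.5, against 117 ± 13.2 CPM at E13.5 (log2 change -1.67 ± 0.23, edgeR adjusted p = 0.000113). No E16.5 library of these genes reached the E13.5 range. The same held for 3 further motors. Kif22 stood at 46.5, 49.1 and 27.5 CPM at E16.5, against 106 ± 4.08 CPM at E13.5 (log2 change -1.36 ± 0.20), and Kif20a at 47.8, 46.9 and 23.9 CPM at E16.5, against 120.4 ± 21.5 CPM at E13.5 (log2 change -1.61 ± 0.24). Kif11, which missed the threshold in the genotype comparison, stood at 127, 125 and 64.8 CPM at E16.5 and 253 ± 11.5 CPM at E13.5 (log2 change -1.26 ± 0.21, edgeR adjusted p = 0.000432).

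On the transport side, Dync1i1 stood at 93.02, 112 and 179.7 CPM in E16.5 p18mKO2-, against 1.29 ± 0.609 CPM in E13.5 p18mKO2- (log2 change 6.64 ± 0.38, edgeR adjusted p = 1.18e-07). Kif5a stood at 240.0, 219 and 258 CPM at E16.5, against 62.8 ± 16.8 CPM at E13.5 (log2 change 1.93 ± 0.19, edgeR adjusted p = 9.38e-06). Kif3c stood at 278, 267 and 211 CPM at E16.5, against 92.6 ± 9.45 CPM at E13.5 (log2 change 1.44 ± 0.13, edgeR adjusted p = 5.03e-06). These 3 neuron-enriched motors showed no overlap between stages. Kif5c, at 617, 570.0 and 591 CPM at E16.5 and 302 ± 26.4 CPM at E13.5, rose by 0.97 ± 0.13, and Kif1a, at 550.1, 449.8 and 307 CPM at E16.5 and 204 ± 33.1 CPM at E13.5, rose by 1.09 ± 0.20. Kif21b, at 1144, 813 and 551 CPM at E16.5 and 340.5 ± 89.8 CPM at E13.5, rose by 1.30 ± 0.25, and Dync1li1, at 102, 88.97 and 90.6 CPM at E16.5 and 53.6 ± 11.5 CPM at E13.5, rose by 0.81 ± 0.16. None of the 4 overlapped between stages, and their adjusted p lay between 0.000102 and 0.00153 (edgeR).

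The transport motor that fell was Kif1c, at 28.7, 26.96 and 16.9 CPM in E16.5 p18mKO2- and 46.3 ± 3.05 CPM in E13.5 p18mKO2- (log2 change -0.94 ± 0.21, edgeR adjusted p = 0.00376). Its stages did not overlap, and it was called under all 22 alternatives. Kif21a, Kif13a, Klc2, Klc4, Kif5b and Dync1i2 were among the 10 transport motors not called, with log2 changes of -0.04 ± 0.13, -0.03 ± 0.19, 0.21 ± 0.17, -0.18 ± 0.17, 0.31 ± 0.15 and 0.39 ± 0.20.

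Of the 8 remaining motors 3 rose and 2 fell, where 16.4% of all genes rose and 13.4% fell. Kif26a stood at 114, 121 and 114 CPM in E16.5 p18mKO2-, against 65.6 ± 11.4 CPM in E13.5 p18mKO2- (log2 change 0.82 ± 0.14, edgeR adjusted p = 0.000568), and Kif26b rose by 1.13 ± 0.32. Kif2a stood at 158, 162 and 199.7 CPM at E16.5, against 119.5 ± 5.95 CPM at E13.5 (log2 change 0.54 ± 0.12, edgeR adjusted p = 0.00437). Kif24, a centriolar kinesin that restrains cilium formation, stood at 9.70, 7.73 and 1.97 CPM at E16.5, against 20.2 ± 6.66 CPM at E13.5 (log2 change -1.64 ± 0.43, edgeR adjusted p = 0.0104). Kif7 also fell, by 0.95 ± 0.26 (edgeR adjusted p = 0.0152), and both decreasing genes showed no overlap between stages. Exons of Kif7 overlap Ticrr on the other strand, and reads of Kif7 and Ticrr cannot be told apart without a stated strand setting.

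Among partners in the same comparison, 14 of 16 spindle partners fell and 0 rose, where 13.4% of all genes fell, among them Cenpe at -1.52 ± 0.17 and Hmmr, a spindle assembly factor, at -1.59 ± 0.19. Of 19 cargo adaptors 12 rose and 1 fell, where 16.4% of all genes rose, among them Clstn2 at 4.58 ± 0.20, Kifap3 at 1.39 ± 0.16 and Arl8a at 1.29 ± 0.16. Of 21 dynein partners 4 rose and 2 fell, shares near those of all genes (16.4% and 13.4%) and no result about the list. The decreasing pair were Spdl1 at -1.60 ± 0.23 and Nde1, a dynein regulator needed for progenitor division in the cortex, at -1.34 ± 0.25, and the rising ones included the dynactin filament gene Actr1a at 0.73 ± 0.16 and the cargo adaptor gene Bicd1 at 0.54 ± 0.15. All 8 dividing-cell markers fell (838 to 1342 CPM at E16.5 and 2943 to 3078 CPM at E13.5) and 10 of 12 neuron markers rose (6939 to 9444 CPM at E16.5 and 2233 to 2669 CPM at E13.5), and their part in these results was not tested. With the length trend removed, 13 mitotic and 13 transport motors were called.

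In p18mKO2+ tissue the same stage comparison gave 1 mitotic and 1 transport call, where 0.554% of all genes fell and 1.08% rose, 1.64% in all. Kif20b stood at 24.8, 29.8 and 23.1 CPM in E16.5 p18mKO2+ and 43.3, 49.9 and 40.1 CPM in E13.5 p18mKO2+, without overlap (log2 change -0.78 ± 0.15, edgeR adjusted p = 0.0244). Dync1i1 stood at 100.2, 70.7 and 123 CPM in E16.5 p18mKO2+ and 20.7, 19.8 and 15.1 CPM in E13.5 p18mKO2+, also without overlap (log2 change 2.40 ± 0.30, edgeR adjusted p = 0.00128). All 13 mitotic log2 changes were negative, with a median of -0.56, and the transport median was 0.14, where the median over all genes was -0.03. Every E16.5 library lay below every E13.5 library in 9 of the 13 mitotic motors, as in 2264 of all 16798 genes, and above in 8 of the 26 transport motors, as in 13.1% of all genes. The mitotic count moved with single libraries: it was 0 without E13.5 p18mKO2+ replicate 1 or 2 or E16.5 p18mKO2+ replicate 1 or 3, 2 without E16.5 p18mKO2- replicate 2 and 6 without E16.5 p18mKO2- replicate 3. The transport count was 2 without E16.5 p18mKO2- replicate 3. Of the partners, Clstn2 rose by 1.79 ± 0.17 and Nusap1, a spindle microtubule protein, fell by 0.82 ± 0.18. The stage change in p18mKO2+ minus that in p18mKO2- is the same quantity as the difference of genotype effects tested above.

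Within sets of paralogs, the share of each gene in the summed TPM of its set shows which copy a library used most. Dync1i1 made up 5.74% to 8.84% of the summed TPM of Dync1i1 and Dync1i2 in E13.5 p18mKO2+ and 0.441% to 1.45% in E13.5 p18mKO2-. At E16.5 its share was 18.5% to 27.2% in p18mKO2+ and 24.6% to 29.8% in p18mKO2-. The E13.5 groups did not overlap each other or the E16.5 groups, which overlapped each other. No test was run on shares.

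Among the kinesin-1 heavy chains, Kif5a made up 18.2% to 21.2% in E13.5 p18mKO2+ and 8.93% to 13.99% in E13.5 p18mKO2-, without overlap, and 22.4% to 25.8% over both E16.5 groups. Kif5b made up 26.1% ± 3.89 in E13.5 p18mKO2+ and 33.8% ± 2.19 in E13.5 p18mKO2- (SD, n = 3 each), again without overlap. The share of Kif5c differed little, with group means between 54.0% and 54.2%. Kif5c thus rose in level in E13.5 p18mKO2+ while its share of the set stayed within the spread.

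Other sets moved in the same genotype comparison. Kif1c made up 6.39% ± 0.760 of the Kif1a, Kif1b and Kif1c sum in E13.5 p18mKO2+ and 11.4% ± 1.42 in E13.5 p18mKO2-, and Kif1a made up 41.0% ± 2.10 in p18mKO2+ and 33.1% ± 2.65 in p18mKO2- (SD, n = 3 each), both without overlap. Kif21b made up 58.3% ± 1.49 of the Kif21a and Kif21b sum in p18mKO2+ and 40.5% ± 10.9 in p18mKO2-, without overlap, and replicate 2 of E13.5 p18mKO2- was the lowest at 28.2%. Kif2a made up 65.1% ± 6.11 of the Kif2a and Kif2c sum in p18mKO2+ and 48.7% ± 4.34 in p18mKO2-, without overlap. Kif3c made up 45.6% ± 5.17 of the kinesin-2 set in p18mKO2+ and 34.6% ± 5.53 in p18mKO2-, also without overlap.

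The remaining sets kept a similar mix. The shares of Klc1 (of Klc1 and Klc2), Kif18a (of Kif18a and Kif18b), Kif20a (of Kif20a and Kif20b) and Dync1li1 (of Dync1li1 and Dync1li2) overlapped between E13.5 p18mKO2+ and E13.5 p18mKO2-. For example, Klc1 made up 82.2% ± 1.79 in p18mKO2+ and 81.1% ± 4.39 in p18mKO2-. At E16.5 the Klc1 share was 76.6% to 81.4% in p18mKO2+ and 81.6% to 85.6% in p18mKO2-, side by side without overlap. The Kif1b share of the Kif1a, Kif1b and Kif1c sum also did not overlap at E16.5, at 44.2% to 50.1% in p18mKO2+ and 50.6% to 54.7% in p18mKO2-. The E16.5 ranges of p18mKO2+ and p18mKO2- overlapped for Dync1i1, Kif5a, Kif1c, Kif21b, Kif2a and Kif3c.

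**Figure D5:**
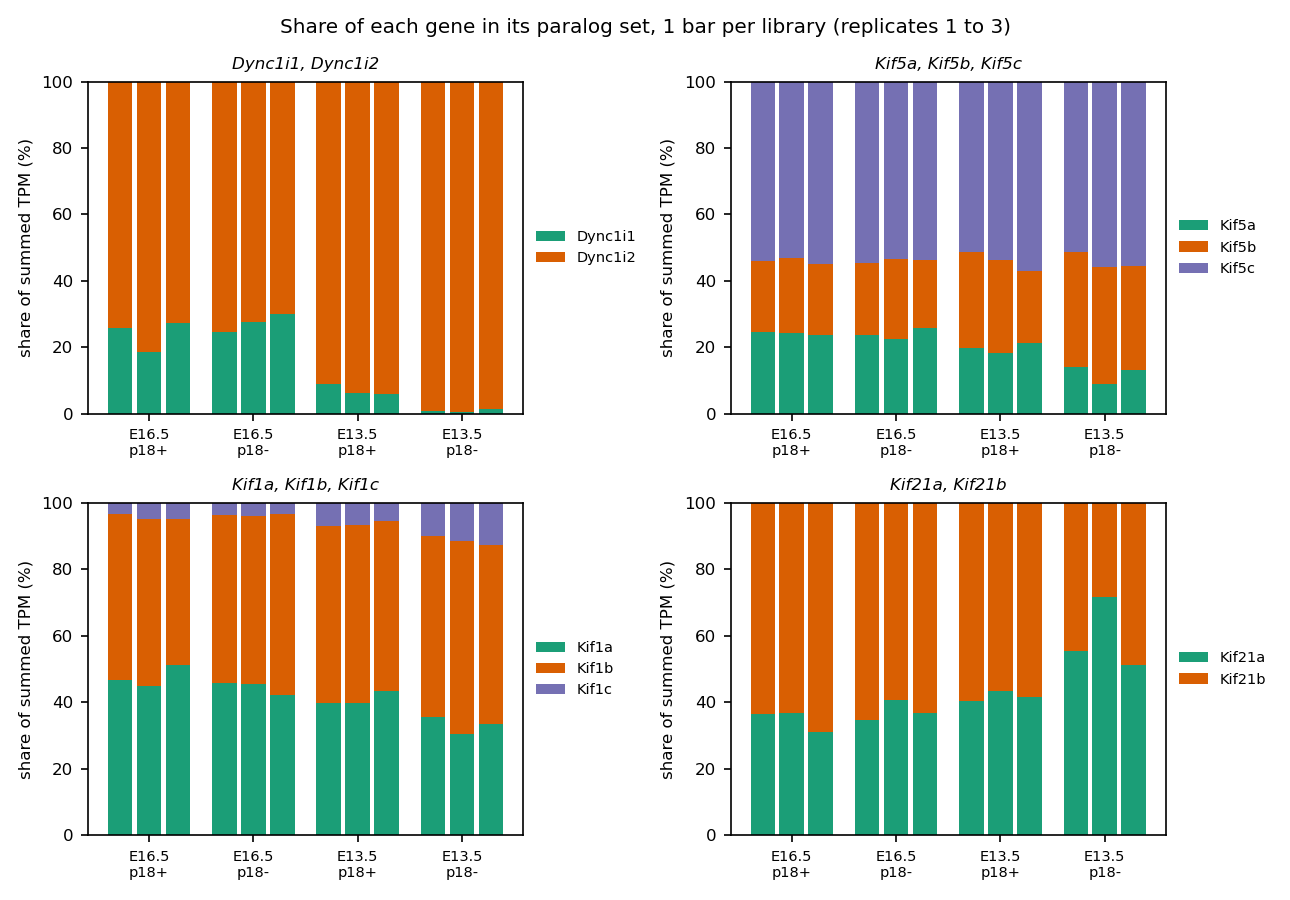
Stacked bars give the share of each gene in the summed TPM of its paralog set, 1 bar per library and 3 per group (p18+ and p18- stand for p18mKO2+ and p18mKO2-), for the dynein intermediate chains, the kinesin-1 heavy chains and the kinesin-3 and kinesin-4 sets. The Dync1i1 share averages 6.89% in E13.5 p18mKO2+ and 0.873% in E13.5 p18mKO2-, and the Kif5c share is near 54% in all 4 groups.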

How the data were processed

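RNA from laser-cut ventricular zone was sequenced in 12 libraries from a directional polyA kit, 3 per group, grouped by the stage and p18mKO2 status in the labels. RSEM 1.2.31, STAR 2.7.2b, cutadapt 3.4 and the build GRCm38 appear in the submitters' processing notes, without their roles. No source used here gives the strand setting of the counting. According to the headers, the deposited tables hold for each gene an expected count and a TPM value made by the authors with RSEM, beside an effective length and a posterior SD of the count. Expected counts were rounded to whole numbers. TPM was used as deposited for levels between genes, class sums and paralog shares, and CPM was computed here from the counts with TMM-scaled library sizes.

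Identifiers were matched to GRCm38 protein-coding symbols, which left out 1 pseudogene with a motor symbol. The members, classes and gene lists were chosen with earlier results of these data known. Genes past edgeR's filterByExpr (16798) were fitted with the quasi-likelihood test of edgeR 4.0.16 on all 12 libraries (R 4.3.3, 8 residual degrees of freedom, common biological coefficient of variation 0.311), and p-values were adjusted by Benjamini-Hochberg over all 16798 genes. The genotype effect at each stage, the stage change in each genotype and their difference were contrasts of that fit, and the SE is the log2 change divided by the root of its F. Comparisons that share a group share its libraries. Values in every library were given for the 6 mitotic, 8 transport and 3 remaining motors with the smallest p in the genotype comparison at E13.5 and the stage comparison in p18mKO2-, for every called motor elsewhere (or the 4 with the smallest p where none was called), and for fixed sets of paralogs. Kif11 at E13.5 was added after its values were seen. Up to 4 genes with the smallest p were named per partner list. Alternatives were DESeq2 1.42.0, limma-voom (limma 3.58.1), RLE scaling, no filter, the 6 libraries compared, a replicate block and each library left out, and, chosen after seeing the data, libraries with transcripts of both sexes left out, covariates for Y-linked and ribosomal RNA expression and removal of the length trend. The fits were tested on simulated counts. Depth was 17101953 to 21837090 counts per library, and floors cover counting error only.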

Additional observations from a re-analysis of the deposited data

Results flagged for a closer look

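For 5 motors and 1 partner gene the genotype difference itself differed between stages (E16.5 minus E13.5, log2, edgeR quasi-likelihood interaction, 3 libraries per group). Among mitotic motors this was Kif23, the centralspindlin kinesin, at 0.90 ± 0.22 (edgeR adjusted p = 0.0448), with log2 changes of 0.08 at E16.5 and -0.82 at E13.5. All 3 E13.5 p18mKO2+ libraries were below all 3 E13.5 p18mKO2- libraries.

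Among transport motors these were the dynein intermediate chain gene Dync1i1 at -4.24 ± 0.46, the kinesin-1 genes Kif5a at -1.51 ± 0.26 and Kif5c at -0.86 ± 0.19, and the kinesin-2 gene Kif3c at -0.97 ± 0.18. In each of the 4, all 3 E13.5 p18mKO2+ libraries were above all 3 E13.5 p18mKO2- libraries, while the E16.5 groups overlapped. The calsyntenin gene Clstn2 differed by -2.79 ± 0.25 in the same direction. Without the libraries that carried both Xist and Y-linked transcripts, Dync1i1 stayed called, while Kif23, Kif5a, Kif5c and Kif3c missed the threshold. No explanation for these differences was tested.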

How the results depend on the processing

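No called motor reversed its direction under any alternative. The counts below stand without the number of all genes called in the same setting, so they do not set the motors apart from other genes. At E16.5 the genotype comparison gave 0 mitotic and 0 transport calls throughout, but its median log2 changes changed sign: the mitotic one (0.08) was -0.14 without E16.5 p18mKO2- replicate 3, -0.0035 without E16.5 p18mKO2+ replicate 2 and -0.08 with the Y-linked covariate, and the transport one (0.03) was -0.04 without E16.5 p18mKO2- replicate 3, -0.02 without E16.5 p18mKO2+ replicate 1 and -0.04 with the ribosomal RNA covariate. Calls of mitotic motors in the genotype comparison at E13.5 (6) became 10 with no filter on low counts, 2 without the libraries holding transcripts of both sexes and 2 with the ribosomal RNA gene as covariate, and 2 to 10 when 1 library was left out. The transport calls there (8) became 5 in each of 3 settings: libraries of both sexes left out, Y-linked covariate, ribosomal RNA covariate, and 4 to 10 when 1 library was left out. In the difference of genotype effects the mitotic call (1) became 3 with DESeq2, 3 with no filter, 0 without the libraries of both sexes, 0 with the Y-linked covariate and 0 with the length trend removed, and 0 to 2 when 1 library was left out. The transport calls (4) became 1 without the libraries of both sexes, and 2 to 4 when 1 library was left out. In the stage comparison in p18mKO2- all alternatives stayed within 1.5 times, with 12 to 13 mitotic and 12 to 16 transport calls when 1 library was left out. In the stage comparison in p18mKO2+ the mitotic call (1) became 4 with DESeq2, 3 with limma-voom, 5 with no filter, 5 with only the 6 libraries compared, 0 without the libraries of both sexes, 2 with the Y-linked and 0 with the ribosomal RNA covariate, and 0 to 6 when 1 library was left out. The transport call (1) became 2 with DESeq2 and 2 with only the 6 libraries compared, and 1 to 2 when 1 library was left out. The cause was not tested.

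With the replicate block the calls were 8 mitotic and 9 transport at E13.5, 3 and 4 for the difference of effects, 13 and 18 for E16.5 against E13.5 in p18mKO2- tissue, and 4 and 2 in p18mKO2+ tissue. The labels give the numbers no shared origin. Between groups that were compared, correlations of same-numbered deviations ran from -0.107 to 0.291, and no compared pair of groups had all 3 above 0.1, so the numbers were not taken to pair the samples. They did exceed 0.1 for all 3 numbers between E16.5 p18mKO2- and E13.5 p18mKO2+ (0.229 to 0.331) and between E16.5 p18mKO2+ and E13.5 p18mKO2- (0.134 to 0.32). A library's best match carried its own number in 20 of 36 cases, where chance gives 12, which is a hint from the data and not from the design. Of the paralog shares, 48 of 92 moved by more than 1 SD when expected counts replaced TPM.

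Precision is limited by 3 libraries per group, and low motors such as Kif17 and Klc3 carried too few counts to judge. The tests compare libraries whose dissected tissue differed in neuron and dividing-cell markers.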

Other observations

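The transport motors Kif21a, Kif13a, Klc4 and Dync1i2 were among those with log2 changes under 0.40 in size in all 5 comparisons. They were called in none of them. The dynein partners as a list stood at 2480 to 2549 summed CPM in E13.5 p18mKO2+ and 2304 to 2433 CPM in E13.5 p18mKO2-, while the spindle partners stood at 1354 to 1831 CPM in p18mKO2+ and 2273 to 2556 CPM in p18mKO2-. The ciliary kinesin genes Kif6, Kif9 and Kif27 were at low levels and called in no comparison. In E13.5 p18mKO2- Kif27 stood at 6.21, 1.93 and 1.04 TPM, so that 1 library set its mean TPM. In CPM the same libraries stood at 3.74, 5.59 and 3.10, where that library was not the highest. Kif9 stood at 0.06, 1.25 and 0.67 TPM and Kif6 at no more than 1.43 TPM in this group.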
